A study of Mus musculus with 15 samples.

Results

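The genes described here are the mouse Fc gamma receptors Fcgr1, Fcgr2b, Fcgr3 and Fcgr4, their signalling subunit Fcer1g, the inhibitory receptor Pirb, the integrin subunits Itgam and Itgb2, and the formyl peptide receptors Fpr1 and Fpr2. They were taken by gene symbol, and all 10 were found among the 53465 genes of the deposited count table. The list was chosen from a table of these same libraries after their levels and fold changes by genotype and treatment were known, so the fold changes and adjusted p-values given here describe these genes and are not independent evidence that such receptors differ between the groups. Total RNA was taken from whole tumours of LLC1, a Lewis lung carcinoma line of the mouse. Tumours grew from LLC1-sgLkb1 cells, whose genotype label is LKB1 knockdown, or from LLC1 cells labelled WT. The 5 groups of 3 libraries are sgLkb1 with radiation (RT), sgLkb1 with radiation and an immune checkpoint inhibitor (RI), sgLkb1 with the inhibitor alone (ICI), WT RI and WT ICI. By the sample titles, the set has no untreated tumour and no WT tumour with radiation alone. The sources used here do not give the identity of the inhibitor, the radiation dose, the host strain or whether LLC1-sgLkb1 is a clone or a pool.

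Fc gamma receptors bind the constant part of IgG and let macrophages, monocytes, neutrophils, dendritic cells and natural killer cells respond to antibody-coated targets. The mouse receptors encoded by Fcgr1, Fcgr3 and Fcgr4 are activating and signal through the ITAM, a tyrosine motif that recruits Syk, carried by the shared chain encoded by Fcer1g, whereas the product of Fcgr2b and the paired immunoglobulin-like receptor B (Pirb) carry ITIMs that recruit phosphatases such as Ptpn6, Ptpn11 and Inpp5d. Itgam and Itgb2 encode the alpha M and beta 2 chains of Mac-1, the adhesion and complement receptor of myeloid cells, and Fpr1 and Fpr2 are G protein-coupled receptors for formylated and other peptides that draw neutrophils and monocytes. In tumours these genes are carried mainly by infiltrating myeloid cells, not by carcinoma cells.

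Of the 5 Fc receptor genes 4 lie together on chromosome 1, and the 2 formyl peptide receptor genes are neighbours on chromosome 17. On GRCm38, as in the deposited table, Fcgr2b spans chr1:170958617-170976547, Fcgr4 spans chr1:171018920-171029761, Fcgr3 spans chr1:171051174-171064935 and Fcer1g spans chr1:171229572-171234365, 275749 bases from end to end. Fcgr1 lies apart at chr3:96282909-96293969. Fpr1 (chr17:17876471-17883940) and Fpr2 (chr17:17887824-17893952) are 3883 bases apart. Pirb lies at chr7:3711409-3720391, Itgam at chr7:128062640-128118491 and Itgb2 at chr10:77530252-77565708. All 10 are annotated as protein coding.

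The 250 bases before the RefSeq start are printed here, 5' to 3' on the gene's strand, for Fcgr1 and for the neighbours Fcgr4 and Fcgr2b, and Fpr2 and Fpr1, whose levels shifted against each other in the WT RI tumours. They come from RefSeq on GRCm38.p6, where 9 of the 10 genes were listed and Itgb2 was not matched. The windows of Fcgr2b and of Fcgr3 (chr1:171059404-171059653, not printed) lie wholly within the gene spans given above. Fcgr3 had 2 entries there, and only the window of the first was used. Capitals mark 3 motifs searched on both strands, which are the PU.1 core GAGGAA, the GAS element TTCNNNGAA and a pair of ISRE half-sites GAAANNGAAA.
Fcgr1, chr3:96293970-96294219, minus strand: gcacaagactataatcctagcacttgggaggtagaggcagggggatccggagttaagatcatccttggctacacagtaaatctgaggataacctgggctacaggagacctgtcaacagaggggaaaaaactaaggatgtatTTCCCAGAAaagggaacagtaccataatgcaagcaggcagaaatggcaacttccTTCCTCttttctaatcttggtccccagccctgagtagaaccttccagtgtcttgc
Fcgr4, chr1:171018676-171018925, plus strand: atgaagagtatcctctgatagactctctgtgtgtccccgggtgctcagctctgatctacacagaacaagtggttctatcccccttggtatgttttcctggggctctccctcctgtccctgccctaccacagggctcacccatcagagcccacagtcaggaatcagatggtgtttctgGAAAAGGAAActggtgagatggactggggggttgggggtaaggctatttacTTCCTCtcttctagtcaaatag
Fcgr2b, chr1:170976072-170976321, minus strand: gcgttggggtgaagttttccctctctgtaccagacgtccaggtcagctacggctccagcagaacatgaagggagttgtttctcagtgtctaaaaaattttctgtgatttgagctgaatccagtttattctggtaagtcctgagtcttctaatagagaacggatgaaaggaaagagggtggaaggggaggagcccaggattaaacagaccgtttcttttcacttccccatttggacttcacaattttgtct
Fpr2, chr17:17887574-17887823, plus strand: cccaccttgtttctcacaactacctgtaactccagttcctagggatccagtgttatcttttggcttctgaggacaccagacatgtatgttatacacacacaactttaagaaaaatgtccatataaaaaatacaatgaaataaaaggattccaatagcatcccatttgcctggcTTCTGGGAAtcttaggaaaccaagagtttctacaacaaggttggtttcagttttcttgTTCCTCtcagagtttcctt
Fpr1, chr17:17883940-17884189, minus strand: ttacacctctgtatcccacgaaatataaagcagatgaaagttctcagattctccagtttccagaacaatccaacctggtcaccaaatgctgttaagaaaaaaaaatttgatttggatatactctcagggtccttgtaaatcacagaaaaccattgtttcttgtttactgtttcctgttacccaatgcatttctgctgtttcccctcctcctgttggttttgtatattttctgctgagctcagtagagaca
The PU.1 core, named for a transcription factor of myeloid cells, was present in 6 of the 9 windows (Fcgr1, Fcgr3, Fcgr4, Pirb, Itgam and Fpr2), against 23.3% of 32851 windows of the same length. The GAS element, named for its response to interferon gamma, was present in Fcgr1 as TTCCCAGAA at position -109 and in Fpr2 as TTCTGGGAA at position -77, counted from the start, against 7.02% of windows. The ISRE pair was present in Fcgr4 alone, as GAAAAGGAAA at position -73, against 2.98% of windows. A C/EBP pattern, TTNNGNAA, not in capitals, was in 6 of the 9 windows and in 36.8% of all windows, and it overlaps the ISRE match of Fcgr4 and the second PU.1 core of Pirb. The windows of Fcgr2b and Fpr1 printed above hold none of the 3 motifs in capitals. These are matches of letters only, and binding was not measured.

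The 12 libraries of the ICI and RI groups have deposited counts, 17289313 to 23471917 each, and FPKM alone was used for the 3 RT libraries. The 10 genes had 31 to 3700 counts in a library and all passed the filter on low counts, which left 16617 genes. The library sgLkb1 ICI 3 stood apart from the other 2 of its group, at -32.9 on the second principal component (12.3% of the variance) against 49.1 and 33.2. Its description carries the word CON where those of 2 sgLkb1 RI libraries carry ICI+RT, and it was kept as ICI as its title says. Stk11, the gene of LKB1, had 139, 111 and 127 CPM in sgLkb1 RI and 115, 128 and 152 CPM in sgLkb1 ICI, against 140, 140 and 147 CPM in WT RI and 168, 152 and 171 CPM in WT ICI. The Stk11 difference did not pass the test under RI (log2 fold change -0.18 ± 0.12 SE, adjusted p = 0.304) or under ICI (-0.31 ± 0.11, adjusted p = 0.0556), so the transcript did not check the genotype label. The labels do not say whether the samples of a group are separate animals, and p-values measure the spread between these samples. Differences were tested with edgeR's quasi-likelihood test, adjusted by Benjamini-Hochberg over all 16617 genes, and a gene is said to have fallen or risen where the adjusted p is under 0.05.

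Per length of transcript, Fcer1g and Itgb2 were among the highest of the 10 genes in every group, and Fpr2 had the lowest mean in every group. Mean FPKM of Fcer1g was 29.8 in sgLkb1 RT, 12.9 in sgLkb1 RI, 24.8 in sgLkb1 ICI, 57.3 in WT RI and 55.2 in WT ICI. In WT RI the order below Fcer1g was Fcgr4 (41.6 FPKM), Itgb2 (35.1), Fcgr3 (18.5), Fcgr1 (13.2), Fcgr2b (12.8), Pirb (6.28), Itgam (4.88), Fpr1 (4.66) and Fpr2 (4.12), where Fcgr1 and Fcgr2b overlapped, as did Itgam and Fpr1, and Fpr1 and Fpr2. Fcgr4 stood next below Fcer1g in WT RI and WT ICI, and in sgLkb1 RI (2.86 FPKM) it overlapped Fcgr2b (3.51 FPKM) and Fpr1 (2.48 FPKM). In sgLkb1 ICI every gene overlapped the next in order.

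Under RI all 10 genes fell in sgLkb1 tumours relative to WT tumours, with the steepest falls in the activating receptors Fcgr4 and Fcgr1. Under ICI 6 of them fell (Fcgr2b, Fcgr3, Fcgr4, Fcer1g, Itgam and Itgb2) and the fold changes were smaller. Over all genes tested, 12.1% passed as lower and 9.18% as higher under RI, and 14.9% passed as lower and 16.1% as higher under ICI. The median log2 fold change of the 10 genes was -1.88 under RI, where that of all genes was 0.02, and -0.90 under ICI, where that of all genes was 0.00. Under RI every sgLkb1 library lay below every WT library for all 10 genes, as for 22.7% of all genes tested, and under ICI for 7, as for 21.7% of all genes. In RNA of whole tumours, fewer cells of a type and less RNA of these genes per cell cannot be told apart.

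**Figure D1:**
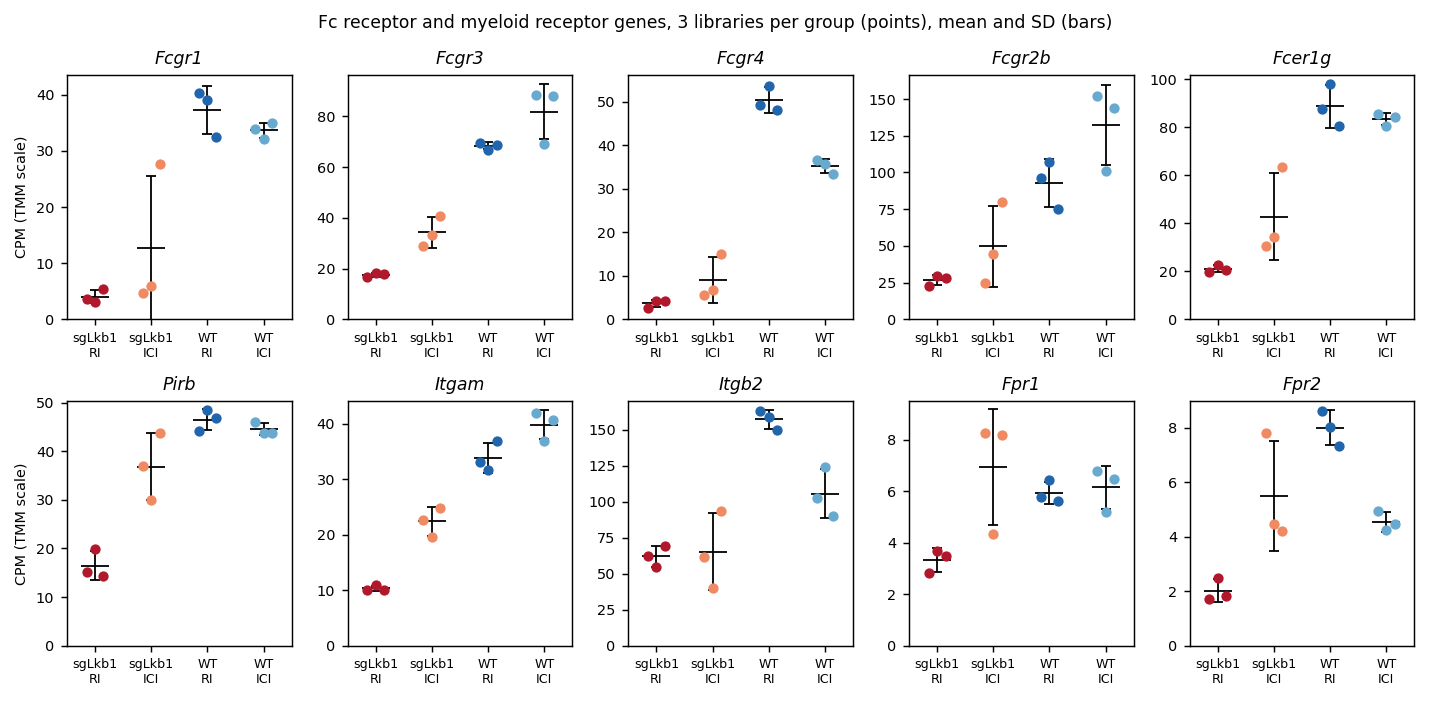
CPM on the TMM scale (y axis) of the 10 receptor genes in each of 12 libraries (points) by group (x axis), with the mean and SD of 3 libraries. The sgLkb1 RI points lie below all WT RI points for every gene, and sgLkb1 ICI 3, the right-hand point of its group, is the highest of its group for all genes but Fpr1 and Fpr2.

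Fcgr4, the activating receptor for IgG2a and IgG2b, had 2.66, 4.16 and 4.15 CPM in sgLkb1 RI, against 49.2, 53.7 and 48.2 CPM in WT RI. Under ICI it had 5.51, 6.69 and 15.1 CPM in sgLkb1, against 36.6, 35.7 and 33.5 CPM in WT. The groups did not overlap under either treatment, and the highest sgLkb1 value was that of ICI 3. Fcgr4 fell by 3.78 ± 0.33 on the log2 scale under RI (adjusted p = 1.41e-05) and by 1.95 ± 0.30 under ICI (adjusted p = 0.000786).

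Fcgr1, the high-affinity IgG receptor, had 3.60, 3.17 and 5.35 CPM in sgLkb1 RI, against 40.3, 39.1 and 32.4 CPM in WT RI. In the ICI groups it had 4.69, 5.93 and 27.6 CPM in sgLkb1, against 33.9, 32.2 and 34.9 CPM in WT. All sgLkb1 libraries were lower than all WT libraries, but ICI 3 lay close to WT and far from the other 2. Under RI the log2 fold change was -3.20 ± 0.57 (adjusted p = 0.00270). Under ICI it was -1.40 ± 0.52 and did not pass (adjusted p = 0.0654), and without sgLkb1 ICI 3 it was -2.65 ± 0.20 (adjusted p = 1.35e-06).

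Fcgr3, the low-affinity activating receptor, had 16.6, 18.1 and 17.8 CPM in sgLkb1 RI, against 69.4, 66.9 and 68.9 CPM in WT RI. Under ICI it had 28.8, 33.4 and 40.6 CPM in sgLkb1, against 88.3, 69.3 and 87.9 CPM in WT. The groups did not overlap, and Fcgr3 had the smallest adjusted p of the 10 genes under both treatments. It fell by 1.96 ± 0.13 under RI (adjusted p = 2.19e-06) and by 1.25 ± 0.13 under ICI (adjusted p = 7.54e-05).

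Fcgr2b, the inhibitory receptor, was the most variable of the Fc receptor genes in WT ICI. It had 22.8, 29.4 and 28.3 CPM in sgLkb1 RI, against 96.5, 107 and 75.2 CPM in WT RI. The ICI libraries had 24.5, 44.8 and 79.6 CPM in sgLkb1, against 152, 101 and 144 CPM in WT. No sgLkb1 library reached a WT library of the same treatment. Fcgr2b fell by 1.79 ± 0.34 under RI (adjusted p = 0.00341) and by 1.41 ± 0.34 under ICI (adjusted p = 0.00911).

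Fcer1g, the chain that carries the ITAM for the activating receptors, had 19.9, 22.7 and 20.5 CPM in sgLkb1 RI, against 87.7, 98.0 and 80.4 CPM in WT RI. In the ICI groups it had 30.7, 34.1 and 63.6 CPM in sgLkb1, against 85.5, 80.7 and 84.1 CPM in WT. The groups were separate under both treatments, with ICI 3 again the highest in sgLkb1. Fcer1g fell by 2.08 ± 0.22 under RI (adjusted p = 5.77e-05) and by 0.96 ± 0.21 under ICI (adjusted p = 0.00581).

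Pirb, which binds class I molecules and restrains myeloid activation, had 15.2, 19.8 and 14.4 CPM in sgLkb1 RI, against 44.2, 48.4 and 46.9 CPM in WT RI. Values under ICI were 37.0, 29.9 and 43.7 CPM in sgLkb1, against 46.0, 43.8 and 43.8 CPM in WT. The ICI groups nearly met, whereas the RI groups lay far apart. Pirb fell by 1.50 ± 0.15 under RI (adjusted p = 2.92e-05). Under ICI its log2 fold change was -0.27 ± 0.14 and did not pass (adjusted p = 0.169), and without sgLkb1 ICI 3 it was -0.42 ± 0.13 (adjusted p = 0.0200).

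Itgam, the alpha M chain of Mac-1, had 10.03, 10.9 and 10.02 CPM in sgLkb1 RI, against 33.2, 31.6 and 36.9 CPM in WT RI. Under ICI Itgam had 22.7, 19.6 and 24.9 CPM in sgLkb1, against 42.0, 36.9 and 40.7 CPM in WT. The groups were separate, and sgLkb1 ICI 3 was not far from its group here. Itgam fell by 1.72 ± 0.12 under RI (adjusted p = 2.58e-06) and by 0.83 ± 0.12 under ICI (adjusted p = 0.000395).

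Itgb2, the beta 2 chain shared with LFA-1 and other leukocyte integrins, had 62.3, 54.8 and 69.5 CPM in sgLkb1 RI, against 163, 159 and 150 CPM in WT RI. Under ICI it had 61.8, 40.4 and 93.6 CPM in sgLkb1, against 103, 124 and 90.4 CPM in WT. Here the ICI groups overlapped, since sgLkb1 ICI 3 was above WT ICI 3. Itgb2 fell by 1.34 ± 0.24 under RI (adjusted p = 0.00179) and by 0.70 ± 0.23 under ICI (adjusted p = 0.0405). The ICI call held in 4 of the 12 fits that each leave out 1 library, with adjusted p from 0.000565 to 0.122, and was 0.000565 without sgLkb1 ICI 3. The descriptions of sgLkb1 ICI 1 and 2 share the name H80, which the labels do not explain, and with that pair summed as 1 sample the Itgb2 value under ICI was -0.57 ± 0.23 and did not pass (adjusted p = 0.0954), while the other 5 ICI calls held.

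Fpr1, a formyl peptide receptor of neutrophils and monocytes, had 2.83, 3.69 and 3.48 CPM in sgLkb1 RI, against 5.78, 6.43 and 5.62 CPM in WT RI. Under ICI Fpr1 had 8.29, 4.34 and 8.21 CPM in sgLkb1, against 6.78, 5.19 and 6.49 CPM in WT. The groups overlapped under ICI and not under RI. Fpr1 fell by 0.83 ± 0.25 under RI (adjusted p = 0.0321), a call that held in 6 of the 12 fits that each leave out 1 library (adjusted p 0.00824 to 0.112), and under ICI its log2 fold change was 0.17 ± 0.24 (adjusted p = 0.620).

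Fpr2, its neighbour, had 1.72, 2.50 and 1.82 CPM in sgLkb1 RI, against 8.61, 8.04 and 7.33 CPM in WT RI. Under ICI Fpr2 had 7.82, 4.48 and 4.21 CPM in sgLkb1, against 4.94, 4.23 and 4.45 CPM in WT. The WT RI values were above all WT ICI and sgLkb1 RI values, sgLkb1 ICI 1 lay among them, and under ICI the genotypes overlapped. Fpr2 fell by 1.99 ± 0.26 under RI (adjusted p = 0.000218), and under ICI its log2 fold change was 0.27 ± 0.25 (adjusted p = 0.434).

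**Figure D2:**
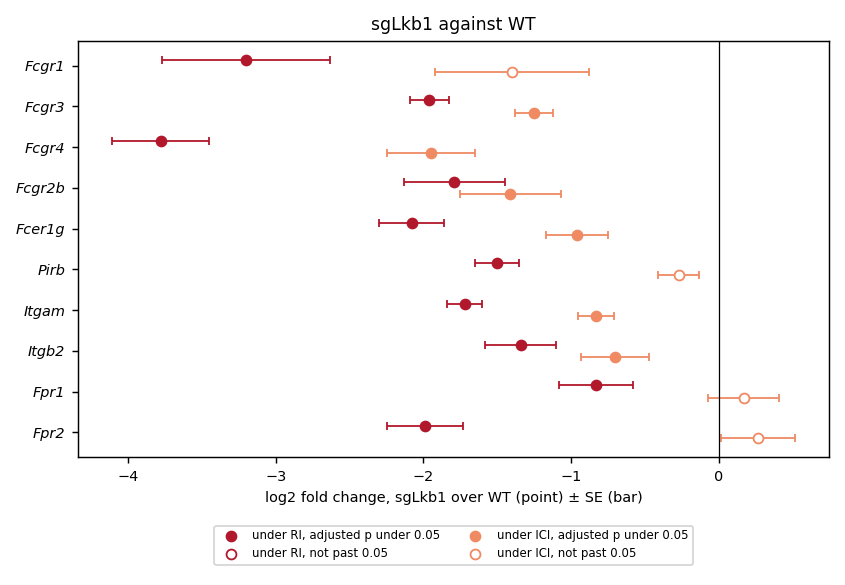
Log2 fold change of sgLkb1 over WT (x axis) with its standard error for the 10 genes (y axis), under RI (upper point of each gene) and under ICI (lower point), filled where the adjusted p was under 0.05. The points under RI lie between -3.78 and -0.83, and the points under ICI lie between -1.95 and 0.27.

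The descriptions of the libraries use 3 namings (JIAN, TUI and SG793) that the labels do not explain, and all WT RI libraries are of the naming JIAN. All SG793 libraries are sgLkb1 (RI 1, RI 3 and ICI 3). Naming is therefore partly tied to genotype, and an added term for naming cannot fully separate them. The JIAN libraries are 1 each of sgLkb1 RI, sgLkb1 ICI and WT ICI, and 3 of WT RI. Among them alone, all 10 genes had a negative log2 fold change in sgLkb1 under RI. The median was -1.66, where that of all genes was 0.00, and it rests on a lone sgLkb1 RI library. The ICI comparison among JIAN libraries sets 1 library against 1 and supports nothing. With the naming as an added term 9 genes fell under RI, where 2487 of all 16617 genes passed as lower. Under ICI 7 fell, where 3470 of all genes passed as lower, and the gene added was Fcgr1. The gene that did not pass under RI with the term was Fpr1 (edgeR, adjusted p = 0.0527). Without sgLkb1 ICI 3 the counts were 10 under RI, where 15.9% of all genes passed as lower, and 8 under ICI, where 22.9% did.

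Genes that act downstream of these receptors fell in sgLkb1 tumours more often than they rose. For this and the other lists and markers below, the shares over all genes tested were 12.1% lower and 9.18% higher under RI. Under ICI they were 14.9% lower and 16.1% higher. Of 19 genes of activating ITAM signalling, 14 fell and 0 rose under RI (median log2 fold change -1.04), and 9 fell and 1 rose under ICI (median -0.53). Pik3cd, the leukocyte PI3-kinase delta, fell by 0.96 ± 0.10 on the log2 scale under RI (edgeR, adjusted p = 5.44e-05) and by 0.69 ± 0.10 under ICI (adjusted p = 0.000601). Plcg2, a phospholipase that the receptors activate, was the gene that rose under ICI, at 44.7 ± 6.63 CPM in sgLkb1 and 30.2 ± 1.29 CPM in WT (SD, n = 3 each; edgeR, adjusted p = 0.00948).

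Of 8 genes of inhibitory ITIM signalling, 5 fell and 1 rose under RI (median -1.08), and 4 fell and 1 rose under ICI (median -0.59). Among the phosphatases that ITIMs recruit, Ptpn6 and Inpp5d fell under both treatments and Ptpn11 did not, as Ptpn6 had a log2 fold change of -1.29 ± 0.22 under RI and -0.97 ± 0.22 under ICI, and Inpp5d had -1.47 ± 0.23 under RI and -1.02 ± 0.23 under ICI. Dok1, an adaptor that dampens kinase signalling, fell by 1.68 ± 0.17 under RI and by 1.07 ± 0.17 under ICI. The gene that rose under RI was Ptpn11, which most cells express (0.42 ± 0.10, with 0.22 ± 0.10 under ICI), and under ICI it was Pag1, a membrane adaptor (0.76 ± 0.27), which fell under RI (-0.87 ± 0.28).

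Of 23 other paired and inhibitory receptors of myeloid cells, 21 were tested, and 19 fell and 0 rose in sgLkb1 under RI (median -1.89), with 8 lower and 1 higher under ICI (median -0.87). Lilr4b, a relative of Pirb, averaged 33.2 ± 7.93 CPM in sgLkb1 RI and 128 ± 8.95 CPM in WT RI (SD, n = 3 each; edgeR, adjusted p = 0.000268). Cd300a, an inhibitory receptor for membrane lipids, fell by 2.67 ± 0.32 under RI and by 1.38 ± 0.30 under ICI. Sirpa, the receptor for CD47, fell by 1.73 ± 0.28 under RI and by 1.37 ± 0.27 under ICI. Cd300lf, another lipid receptor, fell under RI (-1.29 ± 0.40) and was the receptor that rose under ICI (1.25 ± 0.40).

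Fc receptors of other classes were scarce, since 9 of the 12 listed, among them those for IgE (Fcer1a, Fcer2a), IgM (Fcmr) and polymeric immunoglobulin (Pigr), did not pass the filter on low counts. The cytosolic IgG receptor Trim21 fell under RI (-1.58 ± 0.15) and under ICI (-1.48 ± 0.15), and Fcgrt, the neonatal Fc receptor, fell under ICI (-1.05 ± 0.19). Of the genes of immunoglobulin itself 5 of 8 were tested. Of these Ighm alone fell under RI (0.572 ± 0.364 CPM in sgLkb1 and 3.51 ± 0.367 CPM in WT, SD, n = 3 each), and Igha alone under ICI (0.148 ± 0.109 CPM in sgLkb1 and 3.38 ± 1.85 CPM in WT, SD, n = 3 each). At that level in sgLkb1 ICI, Igha passed the filter on low counts through other groups. Igha also fell in WT RI relative to WT ICI. With 1 of 5 lower under each treatment, the counts are too small to be read as a result about immunoglobulin genes.

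Of 10 tested partners and activators of beta 2 integrins, 5 fell and 1 rose under RI, and 5 fell and 2 rose under ICI. Itgal, the alpha chain of LFA-1, averaged 2.35 ± 0.724 CPM in sgLkb1 RI and 22.4 ± 6.60 CPM in WT RI (SD, n = 3 each), and fell by 3.25 ± 0.30 (edgeR, adjusted p = 1.48e-05). Fermt3, the kindlin of blood cells that activates these integrins, fell by 1.78 ± 0.14 under RI and by 1.15 ± 0.14 under ICI. Cyth1, a regulator of integrin adhesion, rose under RI (0.52 ± 0.16) and ICI (0.70 ± 0.16). Of 6 tested ligands of Mac-1, 2 fell and 0 rose under RI, and 2 fell and 1 rose under ICI, counts too small to be read as a result about the ligands. Icam1 fell under RI (-2.87 ± 0.24) and ICI (-1.97 ± 0.23), and C3, the source of the complement fragment that Mac-1 binds, fell under RI (-1.70 ± 0.30), while the one that rose under ICI was Gp1ba, a platelet receptor chain (1.49 ± 0.52).

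Like Fpr1 and Fpr2, other receptors for chemoattractants guide myeloid cells to inflamed tissue. Of 11 tested, 8 fell and 0 rose in sgLkb1 under RI (median -1.90), whereas 4 fell and 2 rose under ICI (median -0.99). The 2 that rose under ICI were the chemokine receptors of neutrophils, Cxcr2 (16.0 ± 7.25 CPM in sgLkb1 and 3.48 ± 1.34 CPM in WT, SD, n = 3 each) and Cxcr1 (log2 fold change 3.33 ± 0.88). Ltb4r1, the leukotriene B4 receptor, averaged 1.47 ± 0.310 CPM in sgLkb1 RI and 6.28 ± 0.683 CPM in WT RI, and fell by 2.10 ± 0.26 (edgeR, adjusted p = 0.000130). Of the relatives and ligands of formyl peptide receptors 2 of 9 were tested. Anxa1, a ligand that resolves inflammation, averaged 456 ± 37.4 CPM in sgLkb1 RI and 441 ± 38.9 CPM in WT RI (log2 fold change 0.05 ± 0.16), and Saa3, an acute-phase protein, averaged 10.1 ± 5.17 CPM in sgLkb1 RI and 27.6 ± 16.0 CPM in WT RI (-1.46 ± 0.94, edgeR adjusted p = 0.324).

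Pan-leukocyte markers and most macrophage markers were lower in sgLkb1 under both treatments, and most monocyte markers were lower under RI. Summed over 5 pan-leukocyte markers, levels were 70.5 to 94.9 CPM in sgLkb1 RI and 134 to 182 CPM in sgLkb1 ICI, against 266 to 342 CPM in WT RI and 271 to 323 CPM in WT ICI, and all 5 fell in sgLkb1 under both treatments. The 12 macrophage markers summed to 272 to 350 CPM in sgLkb1 RI and 357 to 555 CPM in sgLkb1 ICI, against 715 to 829 CPM in WT RI and 968 to 1105 CPM in WT ICI, with 9 of 12 lower under each treatment. C1qb, a complement gene of tissue macrophages, fell by 1.90 ± 0.19 under RI and by 1.81 ± 0.19 under ICI. Monocyte markers summed to 52.1 to 79.2 CPM in sgLkb1 RI and 101 to 178 CPM in sgLkb1 ICI, against 132 to 158 CPM in WT RI and 112 to 128 CPM in WT ICI, and 4 of 6 fell under RI and 1 under ICI. None of the markers in these 3 lists was at 0 in all libraries, and their part in the receptor differences was not tested.

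Neutrophil markers went the other way under ICI and mostly overlapped between the genotypes under RI. They summed to 222, 490 and 208 CPM in sgLkb1 RI and 1108, 663 and 236 CPM in sgLkb1 ICI, against 181, 188 and 195 CPM in WT RI and 125, 50.4 and 99.2 CPM in WT ICI, with ICI 3 lowest in its group. Of 12 tested, 10 rose in sgLkb1 under ICI and 1 under RI, and 0 fell. The gene that rose under RI was Mmp9, at 119, 161 and 93.8 CPM in sgLkb1 RI, against 22.6, 30.4 and 11.1 CPM in WT RI. Mmp9 thus made up a large part of the sgLkb1 RI sums. Under RI 5 of the 12 had a log2 fold change below 0, and for 10 the groups overlapped. S100a9, an abundant calcium-binding protein of neutrophils, averaged 150 ± 96.7 CPM in sgLkb1 ICI and 18.7 ± 8.34 CPM in WT ICI (SD, n = 3 each). The receptors that did not pass under ICI include Fpr1 and Fpr2, which neutrophils also carry, and the part of these cells in that was not tested. T cell markers summed to 0.388 to 1.51 CPM in sgLkb1 RI and 1.02 to 1.87 CPM in sgLkb1 ICI, against 16.8 to 27.4 CPM in WT RI and 13.3 to 21.0 CPM in WT ICI, and all 4 eosinophil markers were under 1 CPM in all 12 libraries.

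**Figure D3:**
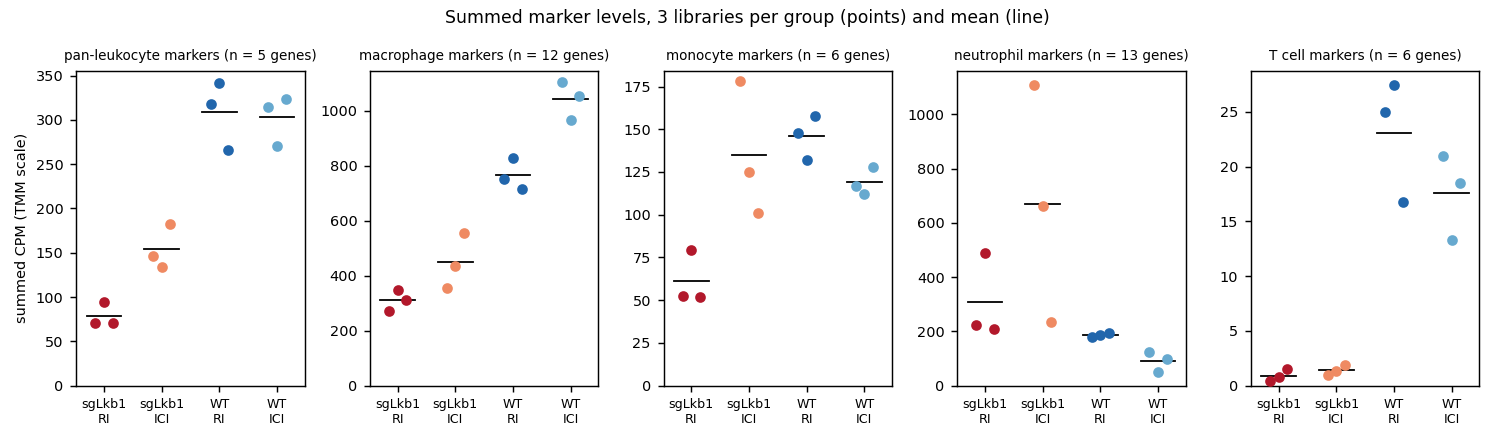
Summed CPM on the TMM scale (y axis) of marker lists for 5 cell classes in each library (points) by group (x axis), with the group mean (line). Pan-leukocyte, macrophage and T cell sums are lower in every sgLkb1 library than in any WT library, whereas the neutrophil sum is highest in sgLkb1 ICI 1 at 1108 CPM.

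Set against Csf1r, the macrophage colony-stimulating factor receptor, within the same library, Fcgr4, Fcgr3 and Pirb did not keep 1 ratio. Csf1r itself had 61.5, 67.1 and 50.6 CPM in WT RI, against 90.5, 88.0 and 95.7 CPM in WT ICI, which raises every such ratio in WT RI. The FPKM ratio of Fcgr4 to Csf1r was 0.594, 0.688 and 0.862 in sgLkb1 RI and 0.709, 0.882 and 1.36 in sgLkb1 ICI, against 3.73, 3.74 and 4.45 in WT RI and 1.89, 1.89 and 1.63 in WT ICI. The ratio of Fcgr3 to Csf1r ranged from 0.984 to 1.22 in sgLkb1 RI and from 1.20 to 1.45 in sgLkb1 ICI, against 1.53 to 2.09 in WT RI and 1.21 to 1.49 in WT ICI. Pirb went the other way under ICI, at 0.643 to 0.780 in sgLkb1, against 0.350 to 0.388 in WT, and under RI it was 0.490 to 0.557 in sgLkb1, against 0.549 to 0.708 in WT. Thus Fcgr4 was lower per Csf1r in every sgLkb1 library than in any WT library, Fcgr3 overlapped between genotypes under ICI, and Pirb was higher per Csf1r in sgLkb1 under ICI. Per Csf1r, Fcgr1, Fcgr2b and Fcer1g also overlapped between genotypes under ICI and were lower in sgLkb1 under RI. Itgam per Csf1r was higher in sgLkb1 under ICI and overlapped under RI. The split of Fcgr4 under ICI did not hold against C1qb, another macrophage marker. Per C1qb, Fcgr4 under ICI was 0.131, 0.0881 and 0.188 in sgLkb1, against 0.149, 0.163 and 0.144 in WT, which overlap. Under RI it was 0.0596 to 0.0872 in sgLkb1, against 0.275 to 0.293 in WT. These ratios are descriptions of genes already chosen, with no test.

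The second question of the design is what radiation added to the inhibitor within each genotype. In sgLkb1 tumours Fcgr3, Pirb and Itgam fell in RI relative to ICI, and all 10 genes had a negative log2 fold change, with a median of -1.09 where that of all genes was -0.02. These 3 genes are among the 14 of 16617 that passed in this comparison (0.0843%), all of them lower in RI. Itgam fell by 1.12 ± 0.12 (adjusted p = 0.00462), Pirb by 1.16 ± 0.15 (adjusted p = 0.0131) and Fcgr3 by 0.97 ± 0.13 (adjusted p = 0.0209). Without sgLkb1 ICI 3, 7 of the 10 genes fell (those 3, Fcgr4, Fcer1g, Fpr1 and Fpr2) and 3324 genes passed in all (19.4%). Without sgLkb1 RI 1 or RI 3 none of the 10 passed (1 and 0 genes in all), and when the 6 sgLkb1 libraries were fitted alone none passed.

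The CPM values given above show how far each gene moved in sgLkb1. For 7 of the 10 genes every RI library was lower than every ICI library, against 7.49% of all genes tested, and the exceptions were Fcgr1, Fcgr2b and Itgb2. Fcgr1 had a log2 fold change of -1.66 ± 0.56 (adjusted p = 0.243), and without sgLkb1 ICI 3 it was -0.40 ± 0.20 (adjusted p = 0.183). Itgb2 was nearly level in the 2 groups, at 62.2 ± 7.32 CPM in sgLkb1 RI and 65.3 ± 26.8 CPM in sgLkb1 ICI (SD, n = 3 each; log2 fold change -0.07 ± 0.23). The partner chain Itgam averaged 10.3 ± 0.485 CPM in sgLkb1 RI and 22.4 ± 2.65 CPM in sgLkb1 ICI, so the FPKM ratio of Itgb2 to Itgam was 7.81 to 10.7 in sgLkb1 RI and 3.19 to 5.83 in sgLkb1 ICI. In WT it was 6.27 to 7.79 in RI and 3.43 to 5.19 in ICI, so it was higher in every RI library than in any ICI library of either genotype.

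In WT tumours none of the 10 genes passed in RI relative to ICI by edgeR, where 0.283% of all genes did. At an unadjusted p under 0.05 there were 2, Fpr2 and Itgb2, where 11.1% of all genes were, and DESeq2 called 1, Fpr2 (adjusted p = 0.0450), among 389 genes in all. The median log2 fold change of the 10 genes was 0.08, against 0.00 over all genes. Fpr2 averaged 7.99 ± 0.640 CPM in WT RI and 4.54 ± 0.366 CPM in WT ICI (SD, n = 3 each; log2 fold change 0.81 ± 0.25, edgeR adjusted p = 0.221). Itgb2 averaged 157 ± 7.02 CPM in WT RI and 106 ± 16.9 CPM in WT ICI (0.58 ± 0.23, adjusted p = 0.374), and Fcgr4 averaged 50.4 ± 2.91 CPM in WT RI and 35.3 ± 1.60 CPM in WT ICI (0.51 ± 0.28, adjusted p = 0.549). For these 3 genes every WT RI library was above every WT ICI library, as for 13.0% of all genes tested. All 3 passed when the 6 WT libraries were fitted alone, where 828 genes passed in all (5.23%).

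**Figure D4:**
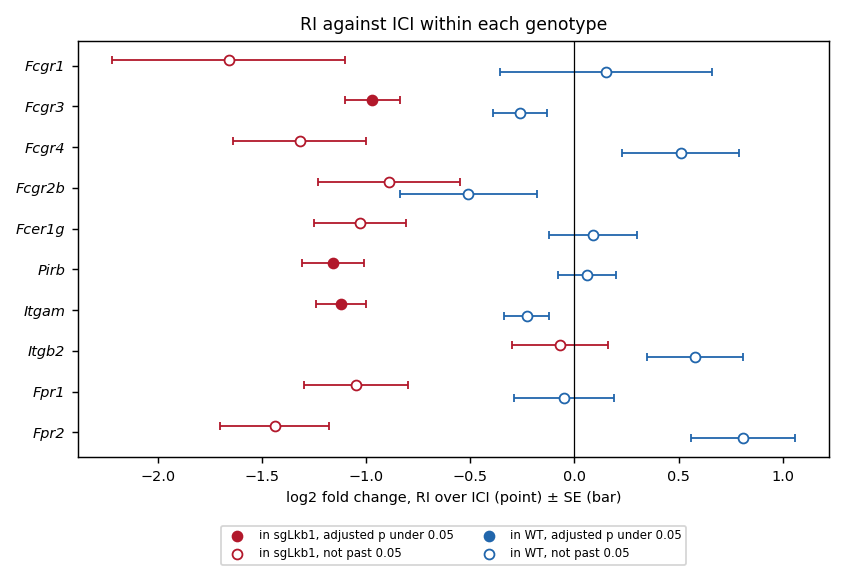
Log2 fold change of RI over ICI (x axis) with its standard error for the 10 genes (y axis), in sgLkb1 (upper point of each gene) and in WT (lower point), filled where the adjusted p was under 0.05. In sgLkb1 all points are below 0, from -1.66 to -0.07, with Fcgr3, Pirb and Itgam filled, and in WT they lie from -0.51 to 0.81 with none filled.

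The difference between genotypes in the effect of RI was itself tested. It passed for Fpr2, Pirb and Itgam, all as lower, as for 0.307% of all genes. For Fpr2 it was -2.26 ± 0.36 on the log2 scale (adjusted p = 0.0250), from an RI effect below 0 in sgLkb1 (-1.44 ± 0.26) and one above 0 in WT (0.81 ± 0.25). For Pirb it was -1.22 ± 0.21 (adjusted p = 0.0302) and for Itgam -0.89 ± 0.17 (adjusted p = 0.0453). All 10 genes had a value below 0 (median -1.06, all genes -0.02), among them Fcgr4 at -1.83 ± 0.43 (adjusted p = 0.0948) and Fcgr2b at -0.38 ± 0.47 (adjusted p = 0.766). Without sgLkb1 ICI 3, 6 of the 10 passed (those 3, Fcgr3, Fcgr4 and Fcer1g) while 1902 genes passed in all (11.1%), whereas in each of 8 fits that leave out another library (WT ICI 1, 2 or 3, WT RI 1, 2 or 3, or sgLkb1 RI 1 or 3) none did.

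Within a library, Fcgr4 and Fcgr1 were higher relative to the inhibitory Fcgr2b in WT RI than in any other library with counts. The FPKM ratio of Fcgr4 to Fcgr2b was 0.960, 0.537 and 0.818 in sgLkb1 RT, 0.700, 0.847 and 0.880 in sgLkb1 RI, and 1.34, 0.895 and 1.14 in sgLkb1 ICI, against 3.05, 3.02 and 3.84 in WT RI and 1.45, 2.12 and 1.39 in WT ICI. Among the 12 libraries with counts, no sgLkb1 library reached the lowest WT library, and no WT ICI library reached WT RI. The RT values come from a separate table, and whether its gene lengths and counting match is not known. The ratio of Fcer1g to Fcgr3 was 1.59, 1.56 and 2.10 in RT, against 2.28 to 3.74 in the 12 libraries with counts. Ratios in RT are thus set beside the others with no claim of a difference. The same ratio for Fcgr1 was 0.278 to 0.487 in sgLkb1 RI and 0.341 to 0.893 in sgLkb1 ICI, against 0.944 to 1.11 in WT RI and 0.577 to 0.822 in WT ICI. The ratio of Fcgr3 to Fcgr2b showed no such split, at 1.21 to 1.43 in sgLkb1 RI and 1.00 to 2.31 in sgLkb1 ICI, against 1.23 to 1.80 in WT RI and 1.14 to 1.35 in WT ICI. Of the windows described above, that of Fcgr4 holds the ISRE pair, that of Fcgr1 holds the GAS element, and those of Fcgr2b and Fcgr3 hold neither. The windows of Fcgr2b and Fcgr3 lie within the gene spans, and only the first Fcgr3 entry was used. Other starts of these genes were therefore not searched. Over all windows 2.98% hold the ISRE pair and 7.02% the GAS element, and the part of these motifs in the ratios was not tested.

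The formyl peptide receptors showed a like shift. The FPKM ratio of Fpr2 to Fpr1 was 0.399, 0.444 and 0.343 in sgLkb1 RI and 0.619, 0.677 and 0.337 in sgLkb1 ICI, against 0.978, 0.821 and 0.857 in WT RI and 0.479, 0.536 and 0.451 in WT ICI. The WT RI values were above those of the other 9 libraries with counts. In sgLkb1 RT the ratio spread widely, at 0.392, 0.114 and 0.756. The ratios were chosen with the levels known and are given as description, with no test.

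**Figure D5:**
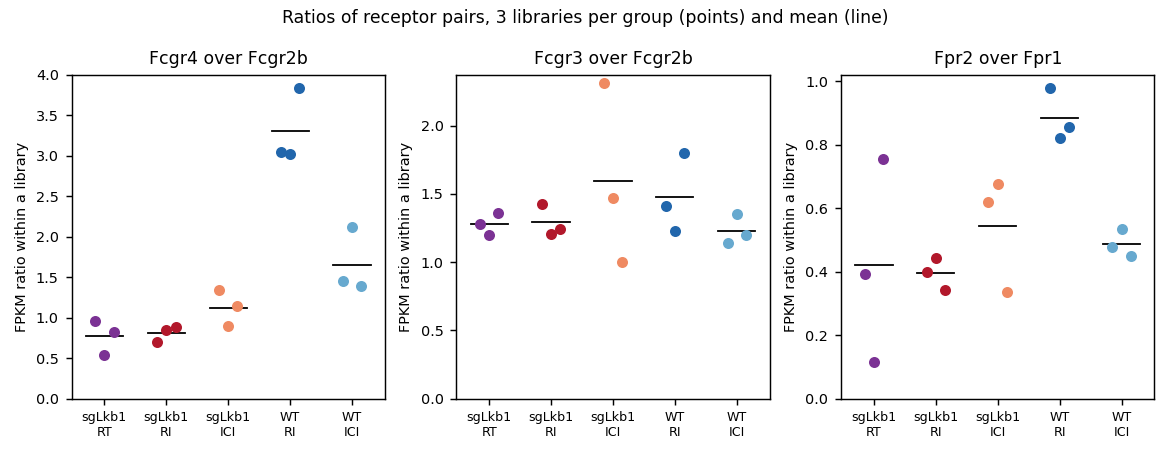
FPKM ratios within a library (y axis) of Fcgr4 to Fcgr2b, Fcgr3 to Fcgr2b and Fpr2 to Fpr1 in 3 libraries (points) of each of 5 groups (x axis), with the group mean (line). The ratio of Fcgr4 to Fcgr2b lies from 3.02 to 3.84 in WT RI and under 1 in all sgLkb1 RT and sgLkb1 RI libraries, and that of Fcgr3 to Fcgr2b overlaps across the groups. The RT values come from a separate table whose gene lengths and counting may differ.

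The sgLkb1 RT libraries are in a table that was normalized apart from the other 12, so their levels are set side by side with no test. Itgam is listed in 2 rows of that table that disagree, and its RT level was left out. Fcgr2b had 15.9, 16.0 and 9.55 FPKM in sgLkb1 RT, against 3.03, 3.80 and 3.70 FPKM in sgLkb1 RI, and Fcgr3 had 20.3, 19.2 and 13.0 FPKM in sgLkb1 RT, against 4.35, 4.60 and 4.58 FPKM in sgLkb1 RI. Fcgr1 had 6.57, 7.51 and 3.63 FPKM in sgLkb1 RT, against 1.24, 1.06 and 1.80 FPKM in sgLkb1 RI. Fcgr4 had 15.3, 8.59 and 7.81 FPKM in sgLkb1 RT, against 2.12, 3.22 and 3.26 FPKM in sgLkb1 RI. All 4 Fc gamma receptor genes were listed higher in each RT library than in any sgLkb1 RI library. FPKM sums of the RT libraries were also larger (302494 to 317949, against 235508 to 254900), and the share of all names placed likewise was not computed.

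On the log2 scale RT was above sgLkb1 RI by 2.11 for Fcgr1, 1.98 for Fcgr2b, 1.96 for Fcgr3, 1.88 for Fcgr4, 1.21 for Fcer1g, 1.06 for Pirb and 0.93 for Itgb2, where the median over 9576 gene names above 1 FPKM in both was 0.19. With every library rescaled to the same sum over the 32807 names shared by the tables, these became 1.68, 1.54, 1.52, 1.44, 0.77, 0.62 and 0.49, and the median of all names became -0.25. The formyl peptide receptors differed from the other 7, with log2 values of 0.12 for Fpr1 and -0.22 for Fpr2, or -0.31 and -0.67 after rescaling. Fpr2 was at 1.09, 0.453 and 0.989 FPKM in sgLkb1 RT, against 0.853, 1.20 and 0.888 FPKM in sgLkb1 RI, which overlap. Macrophage markers summed to 467, 449 and 296 FPKM in RT, against 116 to 142 FPKM in sgLkb1 RI, and neutrophil markers to 41.1, 24.6 and 78.2 FPKM in RT, against 113 to 306 FPKM in sgLkb1 RI, and their part in these levels was not tested.

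Across the 12 libraries with counts, genes with a profile near that of each receptor gene were found by the root mean square difference of centred log2 CPM. Among the 3 nearest to Pirb were Tlr13, an endosomal RNA sensor, and Syk, at 0.16 each, where the median over all genes was 0.71. For Fcer1g the nearest was Dock2, a regulator of leukocyte migration, with Hcls1 (0.15 each, median 0.93), for Fcgr3 Csf2ra, the GM-CSF receptor (0.17, median 0.94), and for Fcgr2b Sirpa (0.17, median 1.01). Fcgr4 lay nearest to Zbp1 and Il2rb (0.25 each, median 1.60) and Itgam to Slfn2 (0.17, median 0.82). Itgb2 lay nearest to Samhd1 (0.18, median 0.71), Fpr1 to Gda (0.19, median 0.57) and Fpr2 to Ltb4r1 (0.21, median 0.82). Among the 10 genes the closest were Fcgr3 with Fcer1g and Itgam with Fcgr3 (0.21 each), and Fcgr1 and Fcgr4 lay nearest to each other at 0.40, while the nearest to Itgb2 was Fcer1g at 0.51. The points share libraries and genotype, and likeness of profile is given as description.

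Some of these genes share sequence with others, so reads could have been split in the authors' counting, for which the sources used here give no rules. Of the 50-base stretches of annotated transcripts, 34.0% of Pirb are also in relatives (Gm14548, Pira2, Lilra6) and 31.5% of Fpr2 are also in Gm5966, Fpr3 or Fpr1. For Itgam 66.3% are also in Gm49368, an overlapping gene that had at most 2 counts in a library. Fcgr3 shares 9.58% with Fcgr2b, and Fcgr1, Fcgr4 and Fcer1g share none. An antisense gene that overlaps Fcgr2b had at most 4 counts in a library, and whether counting used strand is not stated in these sources. Levels of Pirb, Itgam and Fpr2 are therefore uncertain, which are the 3 genes whose RI effect differed between genotypes.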

How the data were processed

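The deposited counts and FPKM of the 12 ICI and RI libraries, and the deposited FPKM of the 3 RT libraries, were used as the authors gave them, with units per the file headers. In 28458 of 28458 genes the length implied by count and FPKM was the same in all libraries within 1%. HISAT2, GRCm38 and mm10 are named in the submitters' processing notes, and the sources used here give no counter, annotation or strand setting. Each column was assigned to its sample by the sample's description.

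Counts were filtered (filterByExpr, minimum count 10, minimum total 15), scaled by TMM and fitted with edgeR 4.0.16 (R 4.3.3), with 1 mean per group over 12 libraries and robust quasi-likelihood. Tests of the 5 contrasts were two-sided, and p-values were adjusted by Benjamini-Hochberg over 16617 genes, with a threshold of 0.05. An SE is the log2 fold change divided by the square root of F. CPM is on the TMM scale, and profiles used log2 CPM with a prior count of 2. A range of CPM or FPKM is the lowest and highest library. The alternatives were RLE factors, library size alone, no filter, DESeq2 1.42.0, the compared groups alone, a replicate block, leaving out each library, summing the pair named H80, and 3 fits by library naming. The fit was tried on simulated counts with changes planted in sgLkb1 ICI alone, and only genotype under ICI was read from them. No naming effect or outlying library was simulated, and the other contrasts were not checked in this way.

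The genes, the lists and the tests were chosen with earlier results of these data known. Of the other genes, those named are up to 3 per list and direction with the smallest p. Some genes under this rule are not reported here. Genes named beyond that rule were picked after their values were seen. FPKM of the RT table, whose sums are 302494 to 317949 against 235508 to 254900 in the other libraries, was set beside sgLkb1 RI with no test. Intervals reflect these libraries only.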

Additional observations from a re-analysis of the deposited data

Results flagged for a closer look

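The effect of RI over ICI differed between the genotypes, by the test of that difference, for 3 of the receptor genes and for 2 genes of the lists beside them. The RI effect in sgLkb1 minus that in WT was -2.26 on the log2 scale for Fpr2, -1.22 for Pirb and -0.89 for Itgam. It was -1.98 ± 0.35 for Ltb4r1, the leukotriene B4 receptor (edgeR, adjusted p = 0.0424), and -1.56 ± 0.26 for Cd52, a surface glycoprotein of leukocytes (adjusted p = 0.0298). Ltb4r1 averaged 1.47 ± 0.310 CPM in sgLkb1 RI and 3.59 ± 1.01 CPM in sgLkb1 ICI, and 6.28 ± 0.683 CPM in WT RI and 3.87 ± 0.484 CPM in WT ICI (SD, n = 3 each). Cd52 averaged 4.87 ± 0.981 CPM in sgLkb1 RI and 13.7 ± 2.41 CPM in sgLkb1 ICI, and 36.0 ± 6.63 CPM in WT RI and 34.3 ± 2.19 CPM in WT ICI. These calls depended on single libraries, since of 12 fits that each leave out 1 library Fpr2 and Pirb passed in 4, Itgam and Ltb4r1 in 3 and Cd52 in 5. With the replicate number as a block none of the 5 passed, with edgeR adjusted p from 0.0516 for Fpr2 to 0.0961 for Ltb4r1.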

How the results depend on the processing

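Leaving aside the fit of JIAN libraries alone, which sets 1 library against 1 under ICI, in every alternative run Fcgr2b, Fcgr3, Fcgr4, Fcer1g and Itgam stayed lower in sgLkb1 and past the threshold under both treatments, and Fcgr1, Pirb, Itgb2 and Fpr2 did so under RI. The comparisons of RI with ICI and the difference between genotypes depended on the setting, and the cause was not tested. Genes past the threshold are given below over all genes, with those among the 10 receptor genes named as receptors.

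Leaving out 1 library gave 3570 to 7827 genes for genotype under ICI (5 to 8 receptors) and 2433 to 5116 under RI (9 to 10). It gave 2 to 350 for RI against ICI in WT (0 receptors), 0 to 3324 in sgLkb1 (0 to 7) and 9 to 1902 for the difference (0 to 6), with the highest of each but the WT receptors without sgLkb1 ICI 3. RI against ICI in WT gave 77 genes with no filter, 389 with DESeq2 (1 receptor), 828 with the 6 WT libraries alone (3), 428 without the libraries named SG793 (1), 183 among those named JIAN and 12 with naming as a term. In sgLkb1 it gave 97 with no filter, 9 with library size alone, 450 with DESeq2 (7), 0 with the 6 sgLkb1 libraries alone (0), 35 without SG793 (0), 119 in JIAN (0) and 76 with the naming term. The difference gave 147 with no filter, 31 with library size alone (1), 564 with DESeq2 (6), 95 without SG793 (1) and 230 in JIAN (1). Genotype under ICI gave 3123 in the compared groups alone and 7975 without SG793.

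With the replicate number as a block, RI against ICI gave 23 genes in WT and 3 in sgLkb1 (1 receptor), and the difference gave 21 (0). The numbers did not pair the libraries: same-numbered libraries correlated at a mean r of 0.00638 (-0.344 to 0.301), and 3 of 12 correlated best with their own number.

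Some log2 fold changes that did not pass changed sign. Under library size alone, which moved the median of all genes under ICI by -0.21 and gave 72.6% of ICI calls as lower, against 48.1% in the fit reported, Fpr1 was -0.04 under ICI and Itgb2 0.03 for RI against ICI in sgLkb1. With 1 library left out, Itgb2 in that comparison ranged from -0.32 to 0.29 (0.02 without sgLkb1 RI 2), Fpr2 in sgLkb1 against WT under ICI from -0.06 to 0.43, Fpr1 for RI against ICI in WT from -0.16 to 0.03 (0.00 without WT RI 3), and the difference for Fcgr2b from -0.70 to 0.14. For RT over sgLkb1 RI, Fpr1 ranged from -0.28 to 0.45 and Fpr2 from -0.44 to 0.08 with 1 RT or RI library left out, and Fpr1 was -0.31 after rescaling. Without SG793, Itgb2 was 0.11 for RI against ICI in sgLkb1 and the difference for Fcgr2b 0.27. In JIAN alone, Fcgr2b was 0.27 in sgLkb1 with a difference of 0.39, and Fpr1 was 0.20 in WT. With the naming term, Pirb was -0.08 in WT. Depth limits Fpr2 most, with as few as 31 counts in a library.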
